A study of Mus musculus with 12 samples.

Results

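Cultured mouse motoneurons with and without Smn1, the gene whose loss underlies spinal muscular atrophy (SMA), were compared in 8 genes. They are Ednrb, Lpar1, Ttyh1, Nkain4, Igsf11, Slc15a2, Vtn and Car3, and they are 8 of the 39174 genes in the tables. They were chosen by their measured FPKM, because these were higher in libraries without Smn1 than in libraries with it, with no stated cut-off. The genotype differences below are therefore descriptions without a test, and the treatment, which did not enter the choice, was tested. All 8 genes were at 1 FPKM (fragments per kilobase of transcript, scaled to the fragments of the library, a level corrected for length and depth) or more in at least 3 of the 12 libraries, the minimum for a test, which 15114 genes met. That minimum could be met by the SMA libraries alone, but each of the 8 genes also met it in control libraries. Vtn did so narrowly, with 1.02, 1.45 and 1.17 FPKM in 3 of them.

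The 12 libraries came from primary motoneuron cultures of FVB mice, and every one carried the human SMN2 transgene. Control cultures were Smn+/+;SMN2 and SMA cultures were Smn-/-;SMN2, so the mouse gene was missing on a background that still held SMN2. Each genotype was left untreated or was given 0.5 µM R-Roscovitine, a purine inhibitor of cyclin-dependent kinases that is also known to act on neuronal calcium channels, with 3 libraries in each of the 4 groups. The labels give no embryonic age or time in culture, and do not say whether libraries of a group came from separate animals, so the p-values reflect only how these libraries vary, which may be technical. Libraries of a genotype that share a number, 1 treated and 1 untreated, deviated together, and are called pairs.

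Library depth, estimated from the smallest step in the low values, was 19.51 to 28.68 M reads, with 23.33 to 28.68 M in control and 19.51 to 25.22 M in SMA libraries. The estimate is rough, since it used the length of the locus in place of the transcript. Only 36.8% to 39.7% of the low values fitted the step. Mouse Smn1, the check of the labels, was 30.9, 41.2 and 51.2 FPKM in untreated control and 6.11, 7.19 and 8.58 FPKM in untreated SMA libraries. With treatment it was 38.2 to 45.1 FPKM in control and 5.04 to 7.35 FPKM in SMA libraries. The groups did not overlap, and the remaining signal in the Smn-/- libraries was not traced to a source, since reads were not used. Pan-neuronal genes were abundant, with a summed level of 701.7 to 1313 FPKM for 11 genes. Genes that define motoneurons were at or near 0: Mnx1 was 0 FPKM in all 12 libraries, and Chat did not exceed 0.0605, Isl2 0.161, Slc5a7 0.249 and Isl1 0.845 FPKM. The cells are therefore named here by their label.

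Most of the 8 products sit in the plasma membrane or are secreted. Ednrb is the type B endothelin receptor, and Lpar1 is a receptor for lysophosphatidic acid, a lipid signal that Enpp2 makes outside the cell and lipid phosphate phosphatases remove. Both are coupled to G proteins and in the nervous system are best known from glia, neural progenitors and, for Ednrb, neural crest. Ttyh1 is a multipass membrane protein of the tweety family found in neural stem cells and glia. Nkain4 belongs to a small family that binds the beta subunit of the sodium pump, and Slc15a2 is the proton-coupled carrier of di- and tripeptides, known in brain from astrocytes and choroid plexus. Igsf11 is an adhesion molecule of the immunoglobulin superfamily that meets the PSD-95 family at synapses. Vtn is vitronectin, a plasma and matrix protein bound by integrins. Car3 is a carbonic anhydrase of the cytosol, abundant in muscle and fat, and so it is neither a membrane nor a secreted protein.

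The 8 genes lie on 7 chromosomes of GRCm38 (positions from GENCODE M21). Ednrb is at chr14:103814625-103844402 on the minus strand, Lpar1 at chr4:58435255-58553898 on the minus strand, Ttyh1 at chr7:4119408-4136708 on the plus strand and Nkain4 at chr2:180934772-180954699 on the minus strand. Igsf11, at chr16:38892671-39027159 on the plus strand, and Slc15a2, at chr16:36750177-36784962 on the minus strand, share a chromosome. Vtn is at chr11:78499091-78502324 and Car3 at chr3:14863512-14872523, both on the plus strand. All are protein-coding. The values are for whole genes and so cover exons and UTRs together. Exons of Ttyh1 overlap antisense exons of 9430041J12Rik by 180 bases and of D030047H15Rik by 244 bases, and those of Nkain4 overlap Gm14341 by 55 bases. The strand setting of the counting is not given in the sources used here, so reads over these stretches cannot be assigned. The overlapping genes were low, at most 0.9997, 0.699 and 0.143 FPKM.

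Promoter windows of 300 bases, lying around an annotated start and mostly before it, were taken from RefSeq (GRCm38.p6). They matched 6 of the 8 genes, in 8 windows, since Lpar1 has 3 starts; Nkain4 and Car3 had no match. The words of 5 factors known from neural progenitors and glia were searched on both strands, with the letters ACAAAG (Sox), AACAAT (Sox2), CAGCTG (E-box), TTGGCA (NFI) and TGGGAA (RBPJ). None of these words holds another. Among all 32851 windows of this length, 18.7% held ACAAAG, 10.7% AACAAT, 16.3% CAGCTG, 14.1% TTGGCA and 25.6% TGGGAA. Among the 8 windows, 2 held ACAAAG, both of Lpar1, 1 held AACAAT, 1 held TTGGCA (Slc15a2), 1 held TGGGAA (Vtn) and 0 held CAGCTG. The windows of Ednrb, Ttyh1 and Igsf11 held none of the 5. A word held by so large a share of all windows is a description of the window and not a binding site. The shares are over all windows, with a median of 52.67% G and C, and were not matched for G and C content. The pair of windows that held a motif 3 times is shown, chosen after the matches were seen, with every match in capitals on either strand. The first is the window of Vtn (chr11:78498870-78499169, plus strand), with TGGGAA at 3 places, 1 of them read on the other strand as TTCCCA.
Vtn promoter: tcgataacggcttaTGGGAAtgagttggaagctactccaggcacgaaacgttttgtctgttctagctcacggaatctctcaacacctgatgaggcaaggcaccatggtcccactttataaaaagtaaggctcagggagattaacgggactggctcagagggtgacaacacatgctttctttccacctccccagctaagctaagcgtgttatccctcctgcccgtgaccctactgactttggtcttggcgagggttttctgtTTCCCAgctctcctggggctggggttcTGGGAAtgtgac
The second is the innermost of the annotated starts of Lpar1 (chr4:58499354-58499653, minus strand), with AACAAT at 3 places, 1 of them read on the other strand as ATTGTT, and ACAAAG once.
Lpar1 promoter, innermost start: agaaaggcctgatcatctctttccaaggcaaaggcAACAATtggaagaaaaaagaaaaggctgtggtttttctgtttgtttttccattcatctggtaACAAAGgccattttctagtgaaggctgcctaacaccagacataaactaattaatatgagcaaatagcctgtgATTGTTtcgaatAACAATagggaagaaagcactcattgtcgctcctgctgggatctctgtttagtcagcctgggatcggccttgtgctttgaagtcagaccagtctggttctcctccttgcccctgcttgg
This window is 43.67% G and C, the lowest of the 8, and the window of Vtn 51.67%; the highest, 71.67%, is that of another start of Lpar1. The values are for whole genes and do not show which start was used.

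By level, per transcript length, Ttyh1 and Ednrb stood highest and Vtn lowest. In untreated SMA libraries the means were 117 ± 51.8 FPKM for Ttyh1 and 111 ± 29.1 for Ednrb (SD, n = 3 here and below), which differed by less than their spread. Lpar1 followed at 24.9 ± 3.87 FPKM, then Igsf11 at 17.3 ± 7.46, Slc15a2 at 16.2 ± 4.89 and Car3 at 16.1 ± 5.502, 3 genes within 1 SD of each other. Nkain4 was at 9.18 ± 2.32 FPKM and Vtn was lowest at 4.66 ± 2.59 FPKM. In untreated control libraries Ttyh1, at 40.1 ± 22.1 FPKM, and Ednrb, at 30.9 ± 14.3 FPKM, again led and overlapped, and Vtn was again last at 1.10 ± 0.312 FPKM. Cufflinks' own interval, which covers counting and assignment error only, reached a median of 4.64% of the value to the upper side for Ednrb, 8.16% for Ttyh1, 10.5% for Igsf11, 12.8% for Car3, 13.9% for Lpar1, 21.9% for Slc15a2, 32.2% for Vtn and 32.4% for Nkain4. Vtn and Nkain4 are thus the least precisely measured.

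**Figure D1:**
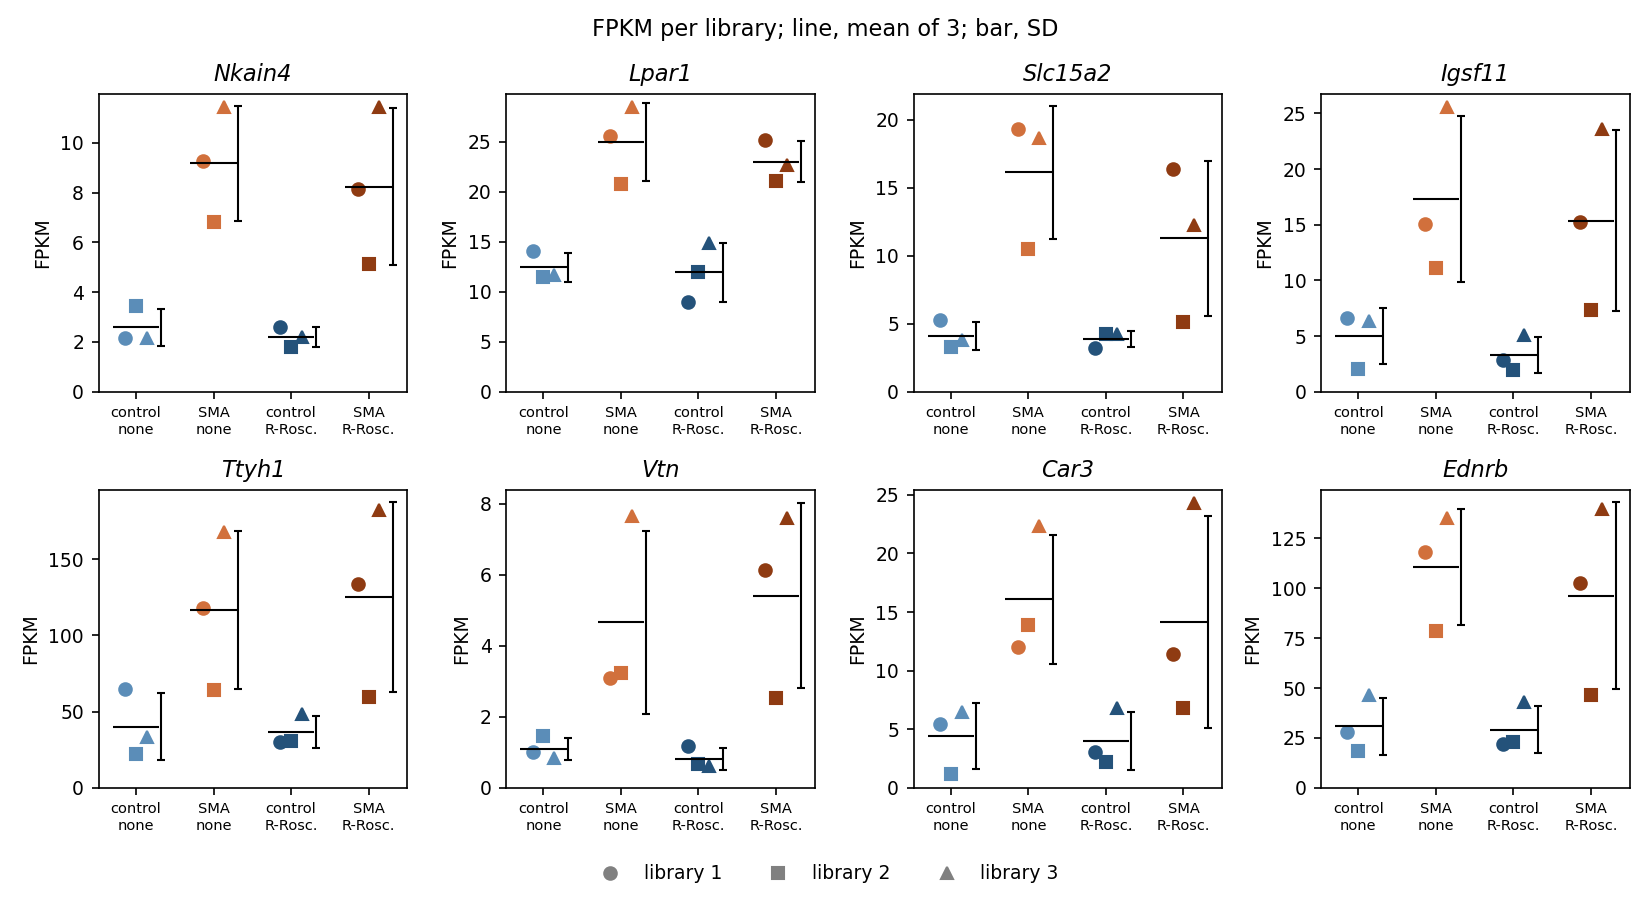
FPKM of each of the 8 genes in each of the 12 libraries, 1 panel per gene with a linear axis from 0, by group; symbols mark the library number, lines the mean of 3 libraries and bars the SD. SMA libraries lie above control libraries of the same treatment except for untreated Ttyh1 (64.4 against 64.7 FPKM), and SMA library 2 is usually the lowest, as for treated Ednrb at 46.6 FPKM.

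The receptor Ednrb was 27.8, 18.3 and 46.4 FPKM in the 3 untreated control libraries and 118, 78.7 and 135 FPKM in the untreated SMA libraries. With R-Roscovitine it was 21.7, 22.8 and 43.0 FPKM in the control and 103, 46.6 and 140 FPKM in the SMA libraries. The SMA mean was 3.59 times the control mean without treatment and 3.30 times with it. The groups did not overlap in either treatment, but the lowest SMA value, in treated library 2, was only 1.004 times the highest control value, in untreated library 3. In bulk RNA, more cells of a type and more RNA per cell cannot be told apart for this or any other of the 8 genes.

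Lpar1, the receptor for lysophosphatidic acid, was 14.1, 11.5 and 11.7 FPKM in untreated control and 25.5, 20.8 and 28.5 FPKM in untreated SMA libraries. With treatment it was 8.96, 11.9 and 14.9 FPKM in the control and 25.2, 21.1 and 22.7 FPKM in the SMA libraries. It had the smallest ratio of the 8, 2.01 without and 1.93 with treatment, and also the tightest replicates. No SMA library overlapped a control library.

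Ttyh1 was 64.7, 22.1 and 33.3 FPKM in untreated control and 118, 64.4 and 168 FPKM in untreated SMA libraries. SMA library 2 fell just under control library 1, the only overlap within a treatment among the 8 genes. With treatment the values were 30.3, 30.5 and 48.4 FPKM in the control and 134, 59.3 and 183 FPKM in the SMA libraries, without overlap. The ratio of means was 2.92 without and 3.44 with treatment.

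Nkain4, of the family that binds the sodium pump, was 2.18, 3.44 and 2.16 FPKM in untreated control and 9.27, 6.82 and 11.5 FPKM in untreated SMA libraries. With treatment it was 2.59, 1.81 and 2.19 FPKM in the control and 8.16, 5.12 and 11.4 FPKM in the SMA libraries. The ratio was 3.54 without and 3.75 with treatment, with no overlap. Slc15a2, the peptide carrier, was 5.28, 3.32 and 3.78 FPKM in untreated control and 19.3, 10.5 and 18.6 FPKM in untreated SMA libraries. Treated, it was 3.19, 4.27 and 4.23 FPKM in the control and 16.4, 5.16 and 12.3 FPKM in the SMA libraries. Its ratio was 3.92 without and 2.90 with treatment, and treated SMA library 2 lay below untreated control library 1.

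Igsf11, the adhesion molecule, was 6.59, 2.08 and 6.38 FPKM in untreated control and 15.1, 11.2 and 25.6 FPKM in untreated SMA libraries. Treated, it was 2.90, 1.96 and 5.13 FPKM in the control and 15.3, 7.31 and 23.6 FPKM in the SMA libraries. The ratio was 3.45 without and 4.62 with treatment, and every SMA library was above every control library. Vtn, the secreted member, was 1.02, 1.45 and 0.839 FPKM in untreated control and 3.10, 3.23 and 7.64 FPKM in untreated SMA libraries. Treated, it was 1.17, 0.678 and 0.603 FPKM in the control and 6.13, 2.52 and 7.59 FPKM in the SMA libraries. Its ratios, 4.23 without and 6.63 with treatment, were the largest of the 8 in each, on the smallest levels.

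Car3, the cytosolic enzyme, was 5.45, 1.18 and 6.50 FPKM in untreated control and 12.0, 13.9 and 22.3 FPKM in untreated SMA libraries. Treated, it was 3.03, 2.18 and 6.83 FPKM in the control and 11.4, 6.84 and 24.3 FPKM in the SMA libraries. The ratio was 3.67 without and 3.54 with treatment. Treated SMA library 2 and treated control library 3 met at 1.002 times.

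Counted over the 8 genes, all SMA libraries were above all control libraries for 7 of 8 without treatment, where 7.83% of all tested genes showed this pattern, and for 8 of 8 with treatment, where 8.90% did. In both treatments 7 of 8 showed it, against 2.46% of all genes, and 6 of 8 when all 6 SMA libraries were set against all 6 control libraries, against 1.38%. On values scaled between libraries it was 8 of 8 untreated, 8 of 8 treated and 8 of 8 in both, against 9.78%, 9.54% and 2.96% of all genes. These counts describe how the genes were chosen and support nothing further. On the log2(scaled FPKM + 1) scale, which understates the difference of low genes, the SMA minus control difference averaged over treatments was 1.78 for Ednrb, 1.77 for Igsf11, 1.70 for Car3, 1.63 for Ttyh1, 1.56 for Vtn, 1.51 for Nkain4, 1.49 for Slc15a2 and 0.96 for Lpar1. Ednrb stood 5th and Lpar1 110th among the 15114 genes in order of that difference. With any 1 library left out, these differences were between 0.87, for Lpar1, and 2.01, for Ednrb.

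The 8 genes varied widely among libraries of 1 group. The SD of log2 values within groups was 0.75 for Car3, 0.68 for Ttyh1, 0.66 for Igsf11, 0.61 for Ednrb, 0.49 for Slc15a2 and Vtn, 0.36 for Nkain4 and 0.23 for Lpar1. The median over all tested genes was 0.21. Of the 8 genes, 6 stood at or above percentile 95.9 of all tested genes, Vtn lowest of these and Car3 highest at percentile 99.1, while Nkain4 stood at percentile 88.5 and Lpar1 at percentile 56.0. The variation had a shared order. SMA library 2 was the lowest of its group for 6 of 8 genes without treatment and for 8 of 8 with it, where 27.8% and 31.9% of all genes had their lowest value in that library. SMA library 3 was the highest for 7 of 8 untreated and 6 of 8 treated, where 31.5% and 32.3% of all genes did. Among untreated control libraries, library 2 was lowest for 6 of 8, where 33.9% of all genes were.

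The summed level of the 8 genes shows the same order. It was 127.2, 63.43 and 111 FPKM in untreated control, 320.4, 209.5 and 417.5 FPKM in untreated SMA, 73.83, 76.22 and 125.2 FPKM in treated control and 319.2, 153.9 and 424.1 FPKM in treated SMA libraries. Ednrb and Ttyh1, the most abundant pair, make up most of these sums. Library 2 of SMA was lowest and library 3 highest in each treatment.

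**Figure D2:**
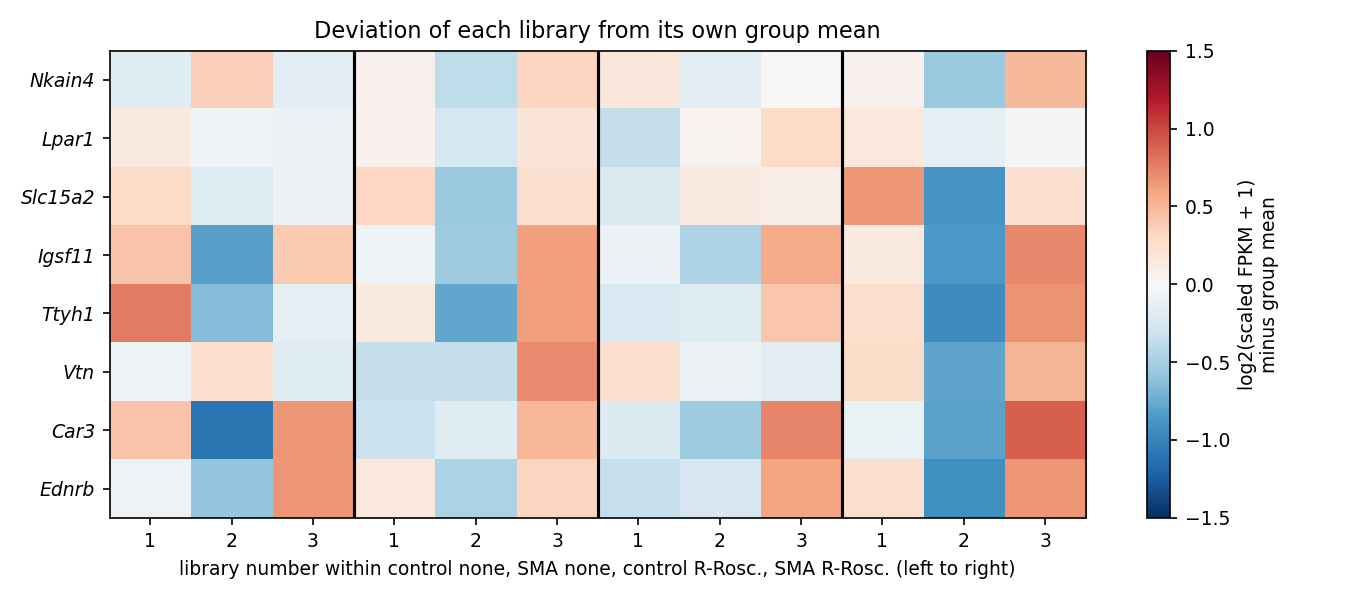
Colour map of the deviation of each library from its own group mean, in log2(scaled FPKM + 1), with the 8 genes as rows and the 12 libraries as columns, grouped by genotype and treatment; red is above and blue below the mean. The column of treated SMA library 2 is blue for all 8 genes (from -0.94 for Ttyh1 to -0.14 for Lpar1), that of SMA library 3 is mostly red, and the row of Lpar1 is palest.

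The likeness of 2 genes was measured as Pearson's r of their log2 values over the 12 libraries after the group means were taken out, so that genotype and treatment do not enter. The points share library, depth and pairing, and r is given as a description. Among the 28 pairs of the 8 genes it ran from 0.214 to 0.946 with a median of 0.565, and 6 pairs were above 0.8. Those were Igsf11 with Car3 (0.946), Ttyh1 (0.906) and Ednrb (0.903), Nkain4 with Vtn (0.876), Car3 with Ednrb (0.862) and Slc15a2 with Ttyh1 (0.824). Against all 15106 other genes the median r of any of the 8 was near 0, between -0.033 for Lpar1 and 0.016 for Nkain4, and 0.444% (Nkain4 and Vtn) to 1.53% (Ttyh1) of genes were above 0.8.

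The genes outside the 8 with the nearest profile were taken as the 2 highest r for each. They were Abca1 (0.963) and Kcnj10 (0.956) for Ednrb, Grhpr (0.953) and Col26a1 (0.952) for Lpar1, Hey1 (0.970) and Tppp3 (0.957) for Ttyh1, and Arl6 (0.966) and C630020P19Rik (0.928) for Nkain4. For Slc15a2 they were Olig1 (0.984) and Sfxn5 (0.970), for Igsf11 Mro (0.973) and Gm3764 (0.968), for Vtn Cdk9 (0.927) and Irf5 (0.926) and for Car3 Pfkfb3 (0.985) and Raver2 (0.975). No gene stood on more than 1 of these lists. For the mean profile of the 8 genes the nearest were Pald1 (0.967), Meis1 (0.964), Gareml (0.963), Kcnj10 (0.961) and Peli2 (0.958). Of these nearest genes, only Kcnj10, a potassium channel of astroglia, and Olig1, a transcription factor of the oligodendrocyte lineage, are on the marker lists read below. The tested astroglial markers ranged widely in r with the mean profile, from -0.208 for Slc1a2 and -0.137 for Hepacam to 0.961 for Kcnj10.

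R-Roscovitine gave no difference in any of the 8 genes that passed the test. The test was limma on log2(scaled FPKM + 1) over all 12 libraries, two-sided, and a gene was called at a p under 0.05 after Benjamini-Hochberg adjustment over all tested genes. For the effect averaged over both genotypes, 0 of the 8 and 0 of 15114 genes (0%) were called, and 253 genes (1.67%) had an unadjusted p under 0.05. The treated minus untreated differences in log2, with 95% intervals, were -0.31 (-0.98 to 0.36) for Igsf11, -0.30 (-0.81 to 0.21) for Slc15a2, -0.16 (-0.78 to 0.45) for Ednrb and -0.16 (-0.55 to 0.24) for Nkain4. They were -0.15 (-0.90 to 0.60) for Car3, -0.08 (-0.34 to 0.19) for Lpar1, -0.01 (-0.52 to 0.50) for Vtn and 0.03 (-0.66 to 0.71) for Ttyh1, each with an adjusted p of 0.9999 (limma). The interval of Lpar1 was the narrowest of the 8 and that of Car3 the widest, and a p that misses the threshold does not show that treatment left these genes alone.

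The treated and untreated library of a number were then compared within pairs, as the correlation of their deviations allowed. The paired limma fit also called 0 of 15114 genes, with 905 at an unadjusted p under 0.05. It narrowed the intervals, to -0.59 to -0.03 for Igsf11 (unadjusted p = 0.0336, adjusted p = 0.8018) and -0.59 to -0.01 for Slc15a2 (unadjusted p = 0.0433, adjusted p = 0.8018). Both fail the correction. Igsf11 was lower with treatment in 5 of 6 pairs and Slc15a2 in 4 of 6.

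In control cultures alone, 0 of the 8 and 0 of all genes (0%) were called, with 205 (1.36%) at an unadjusted p under 0.05 (limma). The 8 differences were from -0.40 for Igsf11 to 0.00 for Car3, with a median of -0.043 against 0.003 for all tested genes. In SMA cultures alone, again 0 of the 8 and 0 of all genes (0%) were called, with 377 (2.49%) at an unadjusted p under 0.05 (limma). Differences there ran from -0.56 for Slc15a2 to 0.18 for Vtn, with a median of -0.195 against 0.002 for all genes. The paired fit also called 0 genes in each genotype. It had more genes at an unadjusted p under 0.05, 562 in control and 1115 in SMA (paired limma). Within pairs, Slc15a2 in SMA had the lowest p of the 8 genes, with an interval of -0.97 to -0.16, an unadjusted p of 0.0121 and an adjusted p of 0.6477 (paired limma), so it did not pass. Its treated minus untreated differences in the 3 SMA pairs were -0.22, -0.90 and -0.57 log2 units, all below 0. In the control pairs they were -0.54, 0.29 and 0.14.

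The libraries on both sides of this comparison also served to choose the genes, which bears on the counts of signs above. How far each treatment counted in the choice is not stated. Had untreated SMA libraries counted more, genes picked as high there could fall back toward the mean in the treated ones. The differences in SMA, that of Slc15a2 included, carry this limit. No group pair of treated and untreated libraries was without overlap for any of the 8 genes. Over all genes, treated libraries lay fully above untreated ones for 1.52% in control and 6.15% in SMA, and fully below for 3.07% and 4.97%.

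The pairs did not move alike. In control pair 1 the treated library was lower for 6 of 8 genes, with a median of -0.55 log2 units and -1.02 for Ttyh1, while in control pairs 2 and 3 it was lower for 3 of 8 in each. In SMA pair 2 it was lower for 7 of 8 genes with a median of -0.44, and -0.92 for Car3, -0.90 for Slc15a2 and -0.74 for Ednrb. In SMA pairs 1 and 3 it was lower for 5 of 8 in each, with medians of -0.04 and -0.01. Vtn was 0.80 higher in SMA pair 1. The median of all genes lay between -0.002 and 0.007 in the 6 pairs.

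**Figure D3:**
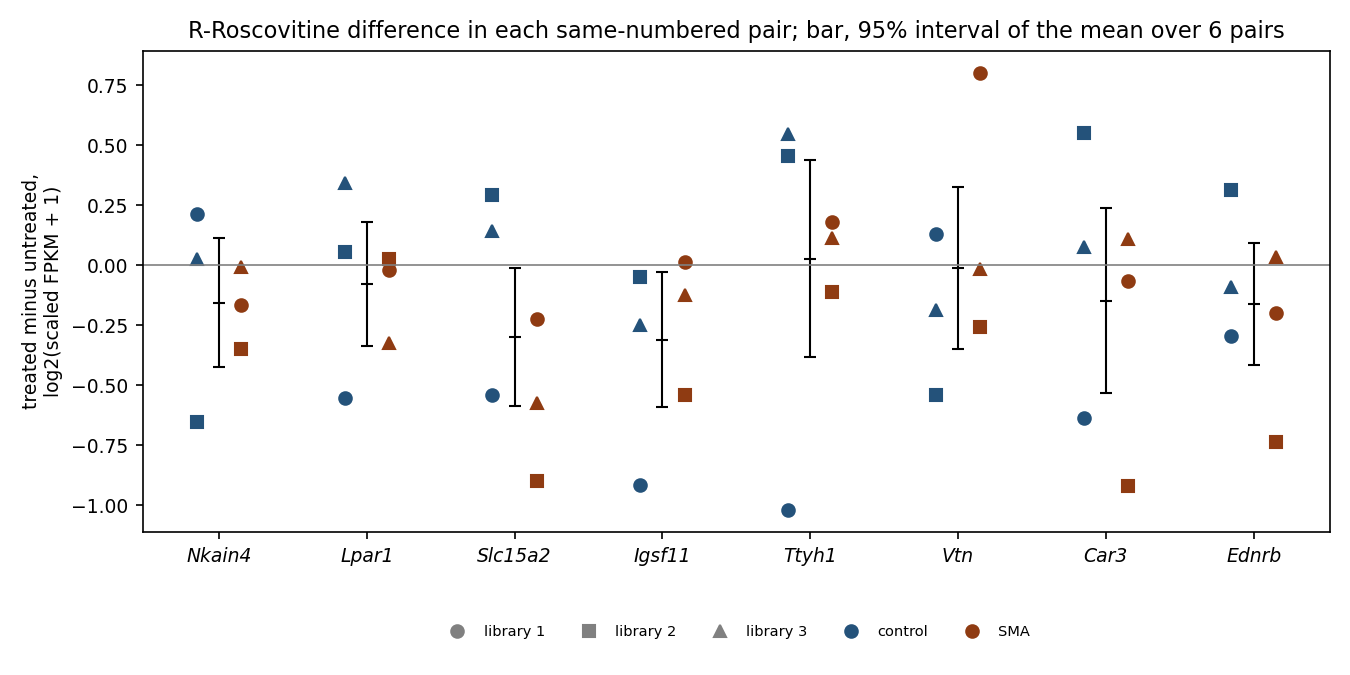
Treated minus untreated difference in log2(scaled FPKM + 1) for each of the 8 genes in each of the 6 pairs, blue for control and brown for SMA, with symbols for the pair number; black bars give the mean over 6 pairs with its 95% interval from the paired fit. Points fall on both sides of 0 for all 8 genes, the widest range being that of Ttyh1 in control (-1.02 to 0.54), and SMA pair 2 is below 0 for 7 of 8 genes.

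Whether treatment acted differently in the genotypes was asked by the interaction term. It called 0 of the 8 and 0 of 15114 genes (0%), with 310 (2.05%) at an unadjusted p under 0.05 (limma). The largest of the 8 were Slc15a2, with -0.53 (95% interval -1.54 to 0.49), and Vtn, with 0.38 (-0.65 to 1.40), both at an adjusted p of 1. The paired fit called none either, with 742 genes at an unadjusted p under 0.05, and gave Slc15a2 an interval of -1.11 to 0.05 at an adjusted p of 0.8148.

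Other genes of the same pathways were read from 8 lists that leave out the 8 genes. For the genotype difference averaged over treatments, limma called 668 of 15114 genes (4.42%), 421 higher in SMA (2.79%) and 247 lower (1.63%). That fit takes the 6 libraries of a genotype as independent. With 1 mean per pair, so 3 values against 3, limma called 1 gene, and none of the pathway or marker genes called below passed (adjusted p = 0.1726 to 0.2284 over the 30 of them, limma). Without treatment and with it, the genotype difference called 1 gene each (0.00662%), and none on the lists, with 14% and 12.9% of genes at an unadjusted p under 0.05 (limma), where the averaged difference had 23%. Of these 30, called in the fit of single libraries, 0 passed with no filter on low values, 1 passed when untreated SMA library 3, treated control library 1 or treated SMA library 1 or 3 was left out, and 3 or 4 passed without untreated SMA library 1 or untreated control library 2. The calls in the next paragraphs hold only for the fit of single libraries.

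Of the endothelin genes, 6 of 9 were tested, 1 was called higher and 1 lower, with a median of -0.113. Mme, a peptidase of the cell surface that degrades endothelins, was the most abundant at 11.8 to 29.5 FPKM, with a difference of 0.44 that did not pass. Ednra, the type A receptor, was 1.20, 1.75 and 2.001 FPKM in untreated control and 4.74, 3.89 and 6.62 FPKM in untreated SMA libraries, and was higher by 1.26 ± 0.23 log2 units (SE, adjusted p = 0.0191, limma). Edn1, an endothelin ligand, went the other way. It was 10.3, 20.8 and 12.2 FPKM in untreated control and 5.05, 9.96 and 5.06 FPKM in untreated SMA libraries, a difference of -0.96 ± 0.23 (adjusted p = 0.0402, limma). In its within-group profile Edn1 had an r of -0.831 with the mean of the 8 genes and Ednra 0.787 (12 libraries). Values of similar size were found on other lists, such as -0.815 for Car8, -0.814 for Tnc and 0.802 for Plpp3. They are therefore not particular to the endothelin genes.

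Of the genes around lysophosphatidic acid, 16 of 20 were tested, 2 were called higher and 1 lower, with a median of -0.134. The 3 most abundant, the G protein subunit Gnai2 (135 to 271 FPKM), Plppr3 (38.0 to 105 FPKM) and the phosphatase Plpp1 (30.7 to 68.9 FPKM), did not pass, with differences of 0.37, -0.47 and -0.41. Lpar4, another receptor of this lipid, was higher by 0.83 ± 0.22 (adjusted p = 0.0485, limma), at 6.71 to 14.2 FPKM in untreated control and 16.7 to 24.9 FPKM in untreated SMA libraries. Plpp3, a phosphatase that removes the lipid, was higher by 0.99 ± 0.19 (adjusted p = 0.0206, limma), at 22.8 to 30.0 against 45.4 to 69.7 FPKM. Plppr4, a neuronal relative of these phosphatases, was lower by -0.53 ± 0.13 (adjusted p = 0.0399, limma), at 8.21 to 9.81 against 4.81 to 6.77 FPKM.

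Of the Nkain and sodium pump genes, 12 of 15 were tested, and 1 was called: Atp1b1, a beta subunit of the pump, was 153 to 182 FPKM in untreated control and 105 to 134 FPKM in untreated SMA libraries, lower by -0.52 ± 0.12 (adjusted p = 0.0385, limma). The median of the list was -0.01. Of the relatives and partners of Igsf11, 11 of 16 were tested. Jam3, a junctional adhesion molecule, was higher by 0.52 ± 0.13 (adjusted p = 0.0421) and Dlg3, a synaptic scaffold, lower by -0.55 ± 0.11 (adjusted p = 0.0228, both limma), and the median was -0.282. Jam2, at 125 to 244 FPKM, Dlg4, the gene of PSD-95, at 77.2 to 153 FPKM, and Cxadr, at 44.0 to 96.7 FPKM, were the most abundant and did not pass. The remaining tweety genes, Ttyh2 (difference 0.59 at 1.27 to 6.41 FPKM) and Ttyh3 (0.21 at 28.8 to 48.4 FPKM), did not pass. Of 3 tested genes of 9 around peptide transport 0 were called, and the differences were 0.14 for the dipeptidase Cndp2 and 0.21 for Slc15a4, a carrier of the same family as Slc15a2.

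Of 10 tested integrin subunits and other vitronectin partners of 13 listed, 1 was called. Itgb8, an integrin beta subunit whose dimer binds vitronectin, was 8.03, 8.06 and 18.2 FPKM in untreated control and 37.3, 23.6 and 36.3 FPKM in untreated SMA libraries, higher by 1.32 ± 0.23 (adjusted p = 0.0191, limma). The median of the list was -0.313, and the most abundant, Fn1 (77.5 to 247 FPKM), Itgb1 (116 to 220 FPKM) and Tnc (87.2 to 228 FPKM), did not pass, with differences of -0.62, -0.13 and -0.68. Of 9 tested carbonic anhydrases of 15, Car8, a form without enzyme activity, was lower by -0.57 ± 0.15 (adjusted p = 0.0485, limma). Car14, a membrane-bound form at 0.0943 to 0.500 FPKM in control and 0.414 to 1.79 FPKM in SMA libraries, met the minimum for a test only through 3 SMA libraries, so its call (adjusted p = 0.0491, limma) is not counted here. Car10 (11.3 to 26.1 FPKM), Car2 (3.65 to 13.2 FPKM) and Car5b (3.30 to 14.9 FPKM) were the most abundant and did not pass. Across the 8 lists, 5 genes other than Car14 were called higher and 5 lower, and the medians were on both sides of 0.

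In the fit of single libraries, genes on several marker lists of other cell types were also called by genotype. With 1 mean per pair 0 of them passed. Of 12 tested astroglial markers of 15, 7 were called higher in SMA and 0 lower, with a median of 0.819 (limma, averaged over treatments). Of the 7, Gfap met the minimum only through SMA libraries, which leaves 6. Kcnj10 was higher by 2.52 ± 0.33 (adjusted p = 0.009415), Slc1a3, a glutamate carrier, by 0.98 ± 0.18 (adjusted p = 0.01907) and Sox9, a transcription factor, by 0.67 ± 0.16 (adjusted p = 0.03987, limma), while Gja1 had 0.31 and did not pass. The summed level of the 15 was 147.9 to 184 FPKM in untreated control and 227.4 to 311.4 FPKM in untreated SMA libraries, and 122.8 to 171.6 against 187.1 to 319.5 FPKM with treatment. The astroglial markers S100b, at most 0.282 FPKM, and Gjb6, at most 0.134 FPKM, were near 0 in every library. In SMA, library 2 was lowest and library 3 highest for this sum in each treatment, the order also seen for the sum of the 8 genes. In treated control both sums rose from library 1 to library 3. In untreated control they differed, with the astroglial sum highest in library 3 (184 FPKM) and that of the 8 genes in library 1 (127.2 FPKM). Single markers did not all share the SMA order. Without treatment Slc1a3 and Kcnj10 had it, but Gja1 was lowest in library 1 (56.1 FPKM) and Gfap highest there (3.25 FPKM).

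Of 15 tested markers of radial glia and progenitors, 8 were called higher and 0 lower, with a median of 0.717 (limma). Of the 3 most abundant, Fabp7, a fatty acid binding protein, was higher by 1.13 ± 0.28 (adjusted p = 0.04104, limma), while the filament genes Vim, at 1852 to 3278 FPKM most of the sum, and Nes did not pass, with differences of 0.01 and -0.05. Their summed level overlapped between genotypes, at 3408 to 3679 FPKM in untreated control and 3084 to 4054 FPKM in untreated SMA libraries, and 2228 to 3524 against 3129 to 4010 FPKM with treatment. Of 5 tested oligodendrocyte lineage markers of 10, Olig1 was called higher, by 2.34 ± 0.41 (adjusted p = 0.01907, limma), 3 of 5 were above 0 and the median was 0.505. Cnp, with 0.81, and Mbp, with -0.51, the next most abundant, did not pass, and Mbp was 3.99 ± 1.37 FPKM in untreated control and 2.30 ± 0.367 FPKM in untreated SMA libraries. Olig1 alone was 31.5 ± 17.8 FPKM in untreated SMA libraries, most of the sum of that list. The sum was 13.73 to 20.58 against 23.69 to 69.53 FPKM without treatment and 12.18 to 17.95 against 18.77 to 74.63 FPKM with it. In SMA library 1 it was highest, where most of the 8 genes were not.

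Of 11 pan-neuronal genes, 0 were above 0 and 1, Syn1 of synaptic vesicles, was called lower, by -0.72 ± 0.14 (adjusted p = 0.02394, limma), with a median of -0.303. Map2, Stmn2 and Tubb3, the most abundant, did not pass. Their sum was 834.3 to 1224 FPKM in untreated control and 701.7 to 821.4 FPKM in untreated SMA libraries, and 895.4 to 1313 against 823.4 to 1033 FPKM with treatment. Of 5 tested motoneuron markers of 11 found, 1 was called, Chodl, a marker of fast motoneurons, lower by -1.08 ± 0.24 (adjusted p = 0.0337, limma). The sum of the list was 41.33 to 51.98 against 30.80 to 35.22 FPKM without treatment and 35.15 to 51.00 against 31.48 to 39.22 FPKM with it. Foxp1, at 24.85 FPKM on average over the 12 libraries, made up most of this sum and did not pass, with a difference of -0.007. Next were Chodl (7.95 FPKM on average) and Ngfr (2.39 FPKM), which had a difference of -0.41 and did not pass. As the defining markers were at or near 0, this sum does not measure the share of motoneurons. Of 5 tested Schwann cell and neural crest markers, Fabp7, also on the list of radial glia, was called higher and Tfap2b lower, and Dct did not exceed 0.0633 FPKM.

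The remaining lists had no called gene. Fibroblast markers (Col1a1, Ogn and Thy1 the most abundant) had 0 of 6 tested genes called, and a summed level highest in control library 2, at 128.8 FPKM untreated and 124.6 FPKM treated, against 31.44 to 55.63 FPKM in the other 10 libraries. Control library 2 was the lowest of its group for 6 of the 8 genes without treatment (33.9% of all genes), but for only 3 of 8 with it (37.8% of all genes). Skeletal muscle markers (Acta1, Myh8 and Actc1 the most abundant), of interest for Car3, had 0 of 4 tested genes called, a sum of 5.511 to 9.760 FPKM over all libraries, and Myog at no more than 0.0271 FPKM. Adipocyte markers, for the same reason, summed to at most 0.702 FPKM and none met the minimum for a test. Endothelial markers, with Tie1 at 0 FPKM throughout, had 0 of 1 tested gene called and a sum of 2.529 to 9.080 FPKM, and macrophage markers 0 of 3 and a sum of 4.536 to 9.585 FPKM. The part that other cell types have in the levels of the 8 genes was not tested.

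**Figure D4:**
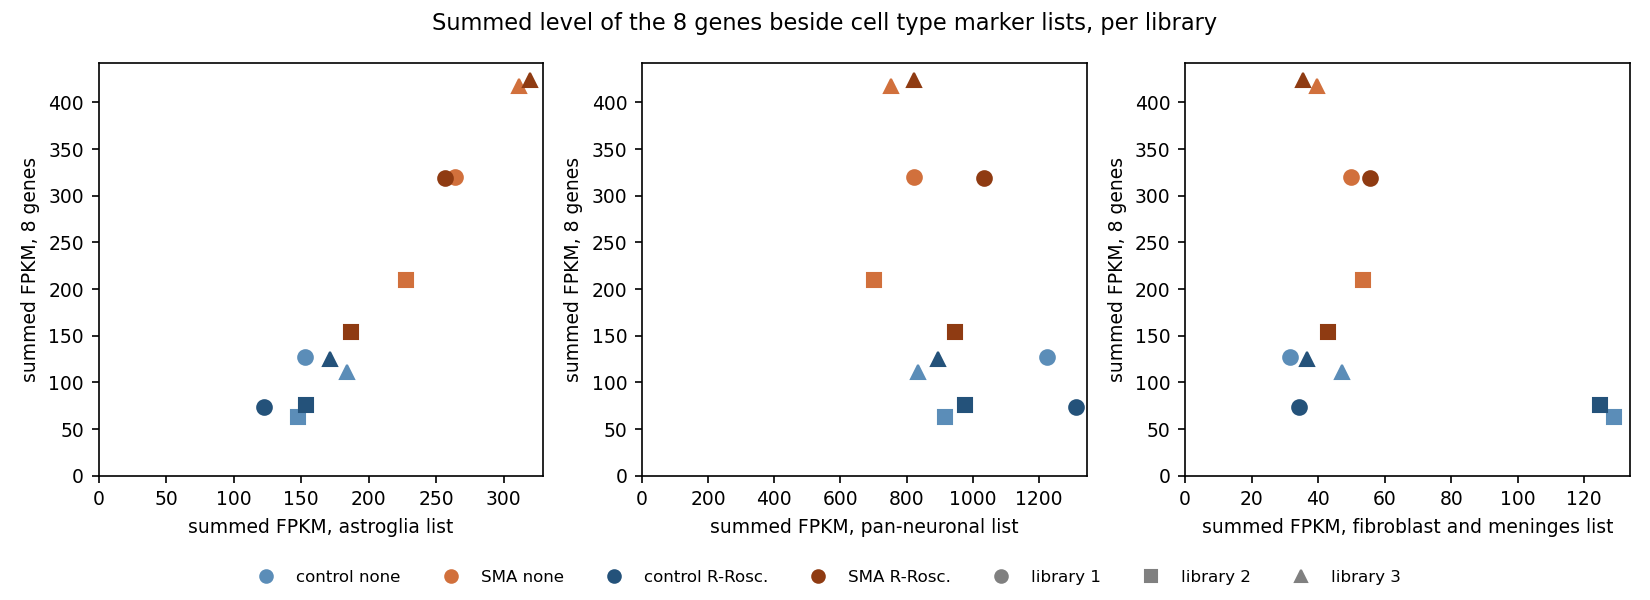
Summed FPKM of the 8 genes (vertical axis) against the summed FPKM of the astroglial, pan-neuronal and fibroblast marker lists (horizontal axis, 1 panel per list), with a point for each of the 12 libraries, coloured by group and shaped by library number. In the astroglial panel the SMA libraries lie to the upper right of the control libraries in both treatments (227.4 to 311.4 against 147.9 to 184 FPKM untreated), and in the fibroblast panel control library 2 stands apart at 128.8 and 124.6 FPKM.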

How the data were processed

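Total RNA was extracted with a Nucleospin kit and made into libraries with Lexogen's mRNA-Seq kit V2, per the labels' protocols. Per the submitters' processing notes the tools were Cufflinks 2.2.1, Trim Galore 0.4.0 and FastQC 0.10.1, on GRCm38. Neither aligner settings nor strand are given in the sources used here. In 12 tables the authors deposited gene-level FPKM (39196 entries, 39174 identifiers), and 19 identifiers on several lines were summed. The low FPKM steps gave whole reads for only 36.8% to 39.7% of low values, so no count model was used. Cufflinks marked 2 to 8 values in each table as not OK.

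FPKM were scaled by median-of-ratios factors and set on the log2(FPKM + 1) scale, with genes at 1 FPKM or more in at least 3 libraries kept. limma 3.58.1 in R 4.3.3 was used (trend, 4 group means, two-sided, 7 comparisons, Benjamini-Hochberg adjusted p under 0.05). Only the treatment effect averaged over genotypes was checked on simulated data. Libraries were drawn independently there, so pairs were not simulated. Levels in the text are unscaled. Same-numbered treated and untreated libraries of a genotype correlated in their deviations from the group means at 0.222 to 0.574 in all 6 pairs. Pairs were therefore taken as a block in a second fit, and the pairing comes from this check and not from the labels. Other numbers correlated at -0.389 to 0.084. Deviations within a group sum to 0, so same numbers that correlate push the other numbers below 0, here and across genotypes. The other numbers are thus no separate comparison. Across genotypes, same-numbered libraries correlated at -0.0535 to 0.307 (8 of 12 above 0.1) and others at -0.282 to 0.186 (1 of 24 above 0.1); as not every pair exceeded 0.1, they were not taken as paired, though they lean that way. Figures were drawn with matplotlib 3.10.9.

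The 8 genes and all gene lists were chosen with earlier results of these data known. The genes named outside the 8 are, from each pathway list, those called and the 3 most abundant, from each marker list the 3 most abundant and defining markers near 0, and the nearest profiles (2 for each of the 8 genes and 5 for their mean); Syn1, Tfap2b and Gfap were named after their values were seen, and some list genes are not reported here. Promoter windows are from RefSeq (GRCm38.p6). Alternatives were another pseudocount (0.1), no scaling, quantile normalization, no filter, library weights, blocks and leaving out each library; leaving out small RNA genes was added after seeing the data.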

Additional observations from a re-analysis of the deposited data

How the results depend on the processing

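No alternative called any of the 8 genes for treatment or interaction (608 member tests, lowest adjusted p = 0.6477, limma), but signs were unstable. With 1 library left out, log2 differences that changed sign ranged, for the averaged treatment effect, Lpar1 -0.15 to 0.0078, Ttyh1 -0.17 to 0.26, Vtn -0.14 to 0.19, Car3 -0.42 to 0.054, Ednrb -0.33 to 0.068. They ranged, for treatment in control, Nkain4 -0.23 to 0.040, Lpar1 -0.20 to 0.12, Slc15a2 -0.13 to 0.11, Ttyh1 -0.33 to 0.39, Car3 -0.54 to 0.32, Ednrb -0.32 to 0.30. They ranged, for treatment in SMA, Nkain4 -0.42 to 0.11, Igsf11 -0.57 to 0.22, Ttyh1 -0.33 to 0.53, Vtn -0.082 to 0.57, Car3 -0.74 to 0.11, Ednrb -0.63 to 0.16. They ranged, for the interaction, Nkain4 -0.28 to 0.24, Lpar1 -0.23 to 0.10, Igsf11 -0.17 to 0.62, Ttyh1 -0.33 to 0.54, Car3 -0.74 to 0.25, Ednrb -0.61 to 0.18. With library weights the averaged treatment effect turned to 0.036 for Lpar1, 0.10 for Igsf11, 0.34 for Car3 and 0.20 for Ednrb, that in control to 0.14 for Lpar1, 0.16 for Slc15a2, 0.24 for Igsf11, 0.58 for Ttyh1, 0.85 for Car3 and 0.49 for Ednrb, and the interaction to 0.34 for Nkain4, -0.29 for Igsf11 and -0.28 for Ttyh1. A pseudocount of 0.1 turned Car3 in control to 0.050. The cause was not tested. Genotype differences of the 8 genes kept their sign throughout. The genes were chosen for that sign in these same libraries, so this supports nothing further. A pseudocount of 0.1 raised the difference of Vtn to 1.93 untreated, 2.51 treated and 2.22 averaged.

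Counts of called genes moved more. With 1 library left out, the untreated genotype difference called 1 to 6 genes, the treated 1 to 205 (205 without treated SMA library 2), the averaged 6 to 1343 and the interaction 0 to 1. Library weights gave 354, 12 and 1953 genes for the untreated, treated and averaged genotype difference, and a pseudocount of 0.1 gave 2 untreated. With no filter, the averaged difference called 1 gene and the interaction 1. A replicate block by number across genotypes, where not every same-numbered pair correlated above 0.1, gave 301, 220 and 1743; 1 mean per pair gave 1. The block of 6 pairs changed no treatment or interaction call. Of the 30 list genes called, pathway and marker lists together, 0 passed with no filter or with 1 mean per pair, and 1 without untreated SMA library 3, treated control library 1 or treated SMA library 1 or 3. Leaving out the scaling shifted the median of all genes by -0.0367 to 0.0229 over the 7 comparisons. Vtn and Nkain4, the lowest in level, have the widest Cufflinks intervals for their size, and 3 libraries a group leave intervals of the treatment effects wide.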

Other observations

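Neuronal genes were also read under treatment, where no gene passed the test. Of the 11 pan-neuronal genes, 11 were above 0 for treated minus untreated libraries averaged over genotypes, with a median of 0.21, and 0 were called (limma). In SMA cultures the median was 0.339, with 11 of 11 above 0, and in control cultures 0.106, with 10 of 11 above 0. Over all tested genes 51.8% were above 0 for the averaged effect, with a median of 0.005. The 8 genes had a median of -0.152 with 1 of 8 above 0, the astroglial markers -0.123 with 2 of 12 above 0, and the markers of radial glia and progenitors -0.09 with 1 of 15 above 0, again with 0 called. These lists were read after earlier results of the same libraries were known, and their genes vary together between libraries, so the counts are descriptions. The sign of the averaged effect changed for 5 of the 8 genes when 1 library was left out, and with library weights Lpar1, Igsf11, Car3 and Ednrb turned positive (0.036, 0.10, 0.34 and 0.20).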
